A study of Homo sapiens with 12 samples.

Results

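The genes described here are 48 genes of ribosome biogenesis and RNA polymerase I, followed in HL-60 cells treated with all-trans retinoic acid (ATRA). They were taken by gene symbol from a list of such genes, and all 48 were among the 26364 genes in the files and among the 12671 genes with enough reads to be tested. HL-60 is an established line of human promyelocytic leukemia, grown in medium with serum, and ATRA is a ligand of the retinoic acid receptors that was given to drive neutrophil differentiation. ATRA was used at 1 µM, and the 4 groups of 3 libraries each are untreated cells (0 h) and cells treated for 4 h, for 2 d or for 4 d. No untreated library from the later times was analysed here, so time in ATRA and time in culture cannot be told apart. The labels do not say whether replicates were separate cultures, and p-values measure the spread between these libraries, which may be technical.

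Ribosomes are built in the nucleolus. RNA polymerase I, guided to the ribosomal DNA by UBTF and the SL1 complex and started by RRN3, makes a long precursor rRNA. Box C/D ribonucleoproteins with the methyltransferase FBL modify it, the small-subunit processome around the U3 snoRNA folds and cuts the part that becomes the 40S subunit, and a separate set of factors builds the 60S subunit. Many of these genes are classical targets of MYC, a transcription factor that binds the E-box CACGTG with its partner MAX. Immature myeloid cells divide fast and make many ribosomes, and nucleoli become inconspicuous as granulocytes mature.

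Promoters of the members are shown first, because a sequence feature, the E-box, was more frequent in them than in tested genes. RefSeq promoters of 300 bases (GRCh38.p14), from 250 bases before the start site to 50 bases after it, were matched by symbol for 40 of the 48 members, and 30 of these had 1 listed start. The palindromic E-box CACGTG, searched on both strands, lay in 13 of these 30 promoters (43.3%), against 727 of 6721 tested genes with 1 listed start (10.8%) and 1609 of 22114 symbols in the table (7.3%). Over the promoters of every listed start the shares were 38% for members and 9.6% for tested genes. Printed below are the 100 bases from 50 before the start site to 50 after it, with the start site as position 1. They are given for 5 members with an E-box (in capitals) and for 2 members without one. The 5 were, among members of their role with an E-box and 1 listed start, those with the largest fall at the last time. The changes of the 2 after ATRA were among the smallest. Both sets were thus picked by their changes and cannot show whether an E-box goes with a larger fall, which was not tested. NME1 (chr17:51153509-51153608, plus strand), MRTO4 (chr1:19251755-19251854, plus strand) and BYSL (chr6:41921449-41921548, plus strand) are followed by RRP9 (chr3:51941855-51941954, minus strand) and MYBBP1A (chr17:4555335-4555434, minus strand). TAF1D (chr11:93741446-93741545, minus strand) and IMP3 (chr15:75640175-75640274, minus strand) hold no E-box.
NME1: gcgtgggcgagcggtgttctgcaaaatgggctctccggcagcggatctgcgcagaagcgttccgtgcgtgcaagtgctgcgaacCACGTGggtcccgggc
MRTO4: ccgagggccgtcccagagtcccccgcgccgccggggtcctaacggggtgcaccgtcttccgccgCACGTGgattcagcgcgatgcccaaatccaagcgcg
BYSL: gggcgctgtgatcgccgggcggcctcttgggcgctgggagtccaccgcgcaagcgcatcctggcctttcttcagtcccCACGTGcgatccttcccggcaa
RRP9: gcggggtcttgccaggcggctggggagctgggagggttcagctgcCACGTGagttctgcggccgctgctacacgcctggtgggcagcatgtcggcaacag
MYBBP1A: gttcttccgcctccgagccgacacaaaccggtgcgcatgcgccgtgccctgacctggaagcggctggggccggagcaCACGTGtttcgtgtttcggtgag
TAF1D: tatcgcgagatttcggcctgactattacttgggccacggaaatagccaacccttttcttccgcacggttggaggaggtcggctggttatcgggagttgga
IMP3: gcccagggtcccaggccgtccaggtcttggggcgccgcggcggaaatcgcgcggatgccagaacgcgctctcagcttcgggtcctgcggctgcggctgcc

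All 13 E-boxes in members with 1 listed start began between positions -15 and 36, at 35 in NME1, 15 in MRTO4, 29 in BYSL, -5 in RRP9 and 28 in MYBBP1A. Of the 831 E-boxes in tested genes with 1 listed start, 146 (17.6%) began in that range, which was set by the members themselves. In members with 2 listed starts, E-boxes also began outside it. They lay at -31 in DDX21, -64 in LYAR, -237 and 43 in EBNA1BP2 and -203 in IMP4. Those at 16 in IMP4 and 7 in GNL3 lay within the range. The other motifs searched on both strands lay closer to the background: the ETS core CCGGAAG in 33.3% of members against 21.9% of tested genes, the CCAAT box in 40% against 37.9%, and TATAAA in 3.3% against 5.3%. Counted over the promoters of every listed start, the shares were 34.0% against 17.4%, 36.0% against 34.5% and 2.0% against 6.1%. No motif contains another. A match to these letters is a description of the sequence and not a measured binding site.

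**Figure D1:**
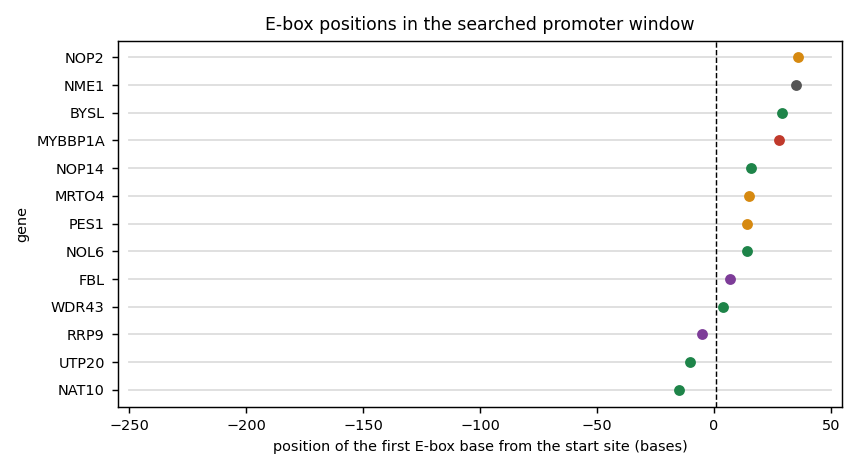
Position of the first base of each E-box from the start site (bases, dashed line at the start site) in the 13 members with 1 listed start and an E-box; grey lines mark the searched window of 250 bases before to 50 after the start, and points are coloured by role. All points lie between -15 and 36.

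Levels are given in CPM, read counts relative to a library's gene reads after scaling, so they are shares of a library and not amounts per cell. In a bulk sample fewer cells that express a gene and less of its RNA per cell cannot be told apart. Gene reads per library ranged from 7866757 to 13658177. The libraries 0 h replicate 2, 4 h replicate 3 and 4 d replicate 1 stood apart from their mates in how expression followed GC content, with slopes of 0.485, 0.361 and 0.311 log2 units per 10 points of GC, against -0.348 to 0.058 in the other 9. The members' transcripts had a median GC content of 51.0%, against 48.5% for tested genes at 10 CPM or more. In 4 h replicate 1, a read was found in 22265 genes, while the other 11 libraries covered 15198 to 15798.

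The cells carried the markers of their label: MPO, PRTN3 and ELANE of promyelocytic granules had means of 27970, 4519 and 2473 CPM at 0 h, and 7 of 8 markers of granulocyte maturation rose at 4 d. The same 3 granule genes fell with the members, with log2 changes of -1.79 ± 0.22, -3.72 ± 0.35 and -4.77 ± 0.36 at 4 d. Of the 10 promyelocytic and granulocytic markers 6 were lower and 3 higher at 4 d, and their sum was 32900 to 46460 CPM at 0 h and 13490 to 14620 at 4 d. The summed level of the 10 erythroid and megakaryocytic markers was 20.3 to 52.7 CPM over all groups, with hemoglobin genes at or near 0. Of the 3 tested, 2 were lower at 4 d and 0 higher. That of the 10 lymphoid markers was 30.6 to 85.6 CPM, with CD3D, CD3G and MS4A1 at or near 0. Of the 5 tested, 2 were higher at 4 d, by up to 3.44 on the log2 scale, and 1 was lower. At 4 d, 28.1% of all tested genes were higher and 29.7% lower. The 8 markers of monocytes and macrophages summed to 2121 to 4025 CPM at 0 h, 2247 to 2360 at 4 h, 888 to 1054 at 2 d and 485 to 738 at 4 d. Of the 4 tested, 2 were lower (LYZ and CD14) and 2 higher at 4 d, among them CSF1R (5.04 ± 0.19 on the log2 scale), while CD163, MRC1 and VCAN were at or near 0. The part of these marker genes in the results on ribosome biogenesis was not tested.

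Transcripts of ribosome biogenesis fell by 2 d and lay lower again at 4 d. The 48 members together held 0.730% to 0.875% of gene reads in the 0 h libraries and 0.847% to 0.915% at 4 h. The share was 0.398% to 0.416% at 2 d and 0.260% to 0.276% at 4 d. The 0 h and 4 h ranges overlapped, every 2 d library lay below all of them, and every 4 d library lay below every 2 d library. Within each late group the 3 libraries lay closer together than those of 0 h.

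At 2 d against 0 h, 41 of the 48 members were lower (85.4%) and 0 higher by edgeR's quasi-likelihood test (adjusted p under 0.05), against 18.7% of all tested genes lower and 16.9% higher. The members' median log2 change was -1.09, with a range from -2.15 for NME1 to -0.04 for UBTF, and the median over all tested genes was -0.02. At least a 2-fold fall was seen in 27 members, against 8.52% of tested genes, and a 4-fold fall in 1 (NME1), against 2.09%. In 41 members every 2 d library lay below every 0 h library, against 25.0% of tested genes. The 7 members that did not pass the test at 2 d were POLR1A, UBTF, RRN3, TAF1D, DDX21, UTP20 and PPAN.

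At 4 d against 0 h, 47 of the 48 members were lower (97.9%), against 29.7% of all tested genes lower and 28.1% higher. UBTF was the remaining one. The median log2 change was -1.75 (0.00 over all tested genes), 42 members had fallen at least 2-fold (17.6% of tested genes) and 18 at least 4-fold (4.93%). In 46 members every 4 d library lay below every 0 h library, against 29.9% of tested genes; IMP3 and PPAN were the other 2. Without the 3 libraries that stand apart in GC, 45 members were lower at 2 d and 47 at 4 d, where 27.3% and 34.3% of tested genes were. In that fit UBTF was called lower at 4 d, and PPAN was the member not called.

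Most members fell further between 2 d and 4 d. In 36 of the 48 (75.0%) every 4 d library lay below every 2 d library and every 2 d library below every 0 h library, an order that 11.2% of tested genes showed. By test, 32 members were lower at 4 d than at 2 d and 0 higher, against 13.5% and 13.1% of tested genes, with a median of -0.67. RRP12 alone had a positive value, 0.12 ± 0.21. Against 4 h, 44 members were lower at 2 d and 0 higher, where 18.0% and 16.5% of tested genes were, and the median was -1.16. Over all times 48 of 48 members changed by edgeR's F-test, against 63.2% of tested genes.

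**Figure D2:**
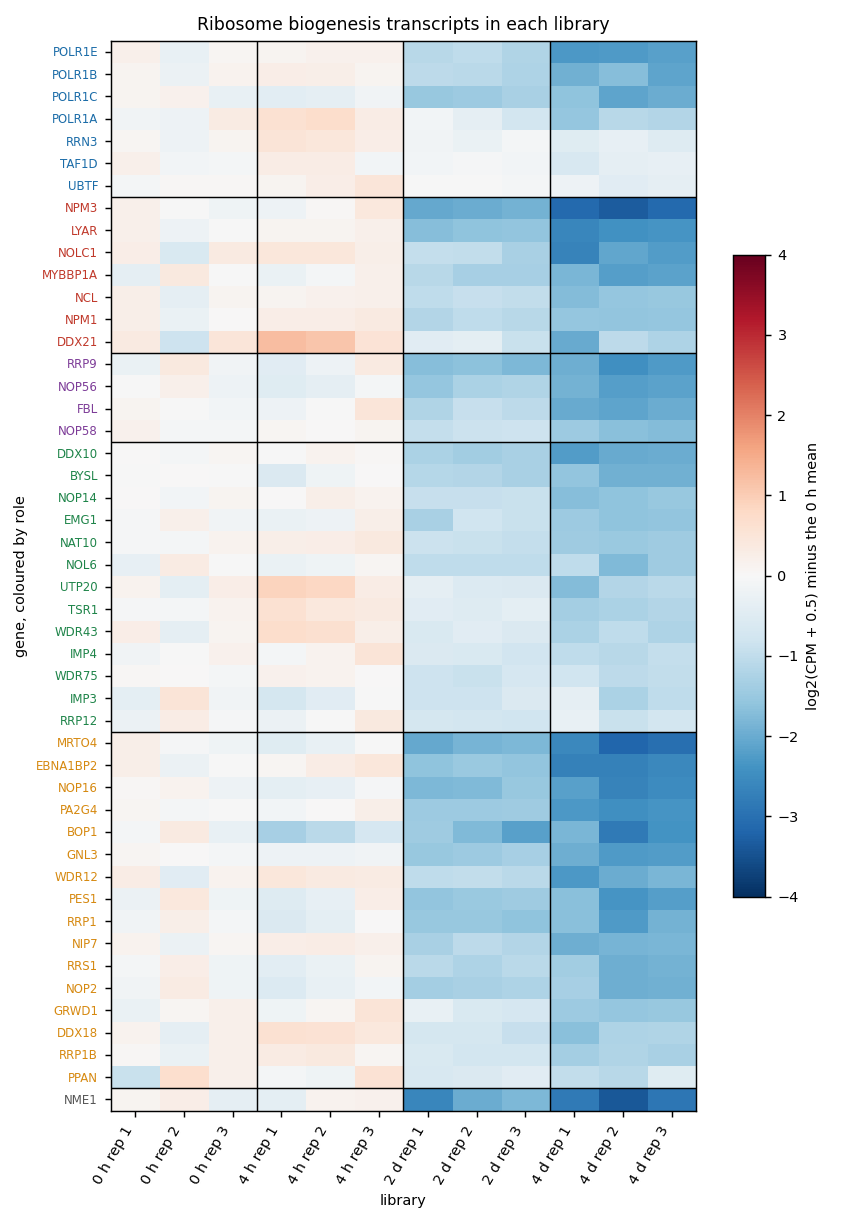
Each row is a member, grouped and coloured by role (RNA polymerase I blue, nucleolar proteins red, box C/D purple, small subunit green, large subunit orange, NME1 grey), and each column a library; colour gives log2(CPM + 0.5) minus the mean of the 0 h libraries. Most rows are pale at 0 h and 4 h, apart from BOP1 (bluer) and DDX21 (redder) at 4 h, and blue at 2 d and 4 d, while UBTF, RRN3 and TAF1D are near 0 at 2 d and pale at 4 d.

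At 4 h the members showed no common fall. In 31 members the highest group mean of all was at 4 h, and the median log2 change against 0 h was 0.11 (0.003 over all tested genes). The change at 4 h was positive in 31 of 48 members and in 6373 of 12671 tested genes. By edgeR's test 0 members were higher and 1 lower, against 2.00% and 4.23% of tested genes, and 9 members had an unadjusted p under 0.05 (18.8%), against 25.3% of tested genes. Every 4 h library lay above every 0 h library in 10 members (UBTF, RRN3, NPM1, DDX21, UTP20, TSR1, NAT10, WDR12, DDX18 and NIP7), against 13.0% of tested genes, and below in BOP1 and GNL3, against 12.5%. Without the 3 libraries that stand apart in GC, 7 members were higher (POLR1A, RRN3, DDX21, UTP20, WDR43, TSR1 and DDX18) and 3 lower (BOP1, RRP1 and MRTO4), 14.6% and 6.25% of the members, while 12.3% of tested genes were higher and 12.6% lower. Without 4 h replicate 3 alone, RRN3, UTP20, WDR43 and TSR1 were called higher (edgeR adjusted p from 0.0278 to 0.037), 8.33% of the members against 6.15% of tested genes. DESeq2 called 3 members higher with all libraries, 6.25% against 4.14%.

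BOP1, which joins PES1 and WDR12 in the PeBoW complex needed to process the rRNA of the large subunit, was the member called at 4 h. Its level was 59.5, 81.2 and 51.6 CPM in the 0 h libraries, 25.0, 29.3 and 39.5 at 4 h, 23.3, 18.1 and 13.5 at 2 d and 17.3, 8.52 and 11.7 at 4 d. The 0 h libraries lay above all others, and the highest 4 d library reached into the range of 2 d. The log2 change at 4 h was -1.04 ± 0.27 (edgeR adjusted p = 0.0388), and the call was lost without 0 h replicate 1, 0 h replicate 2, 4 h replicate 1, 4 h replicate 2, 2 d replicate 2 or 4 d replicate 3. The edgeR adjusted p was 0.166 without 4 h replicate 1 and 0.0576 to 0.161 without the others. At 4 d the change was -2.36 ± 0.29. The other PeBoW members stood at -0.19 ± 0.24 (PES1) and 0.35 ± 0.18 (WDR12) at 4 h and had fallen by 4 d, to -2.09 ± 0.26 and -2.11 ± 0.20.

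**Figure D3:**
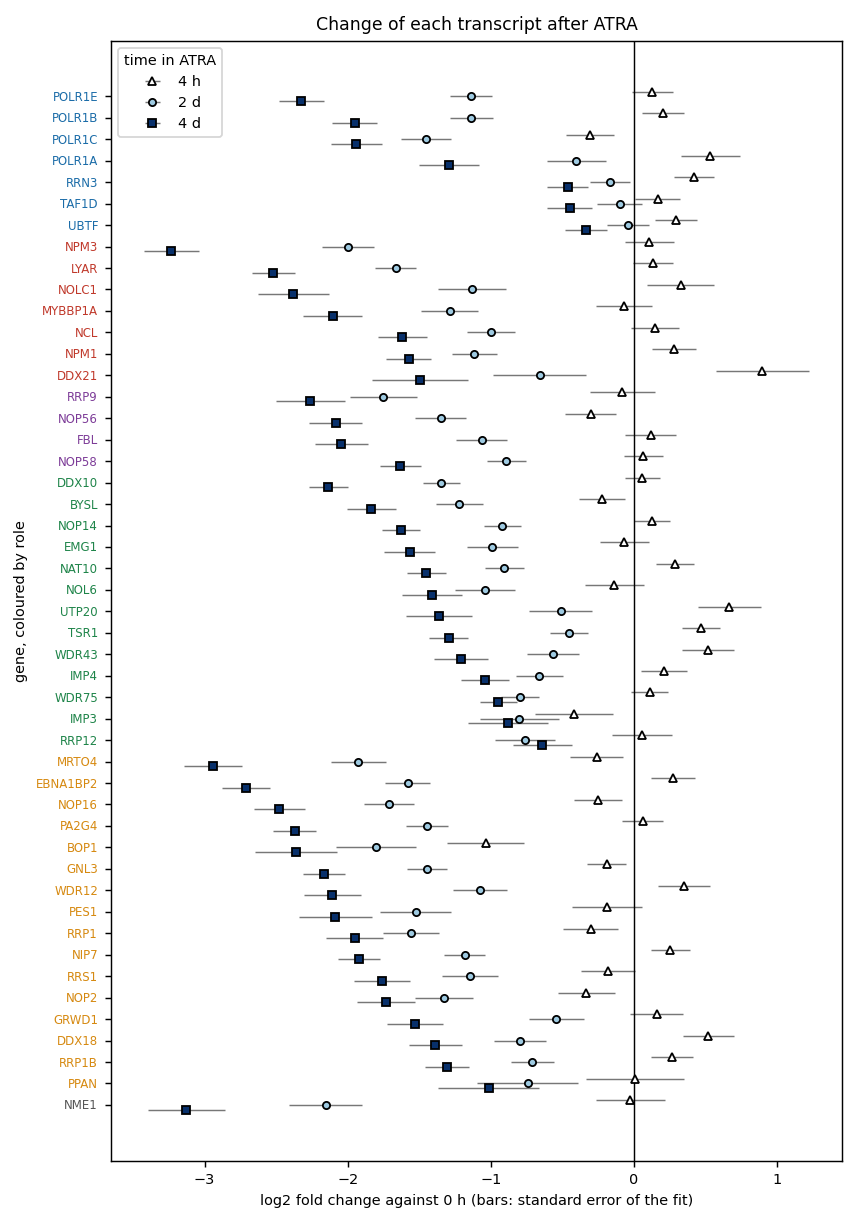
Log2 fold change of each member against 0 h at 4 h (triangles), 2 d (circles) and 4 d (squares), with bars for the standard error of the fit to all 12 libraries; gene names are coloured by role. Values at 4 h scatter on both sides of 0 and those at 4 d run from -3.23 for NPM3 to -0.34 for UBTF.

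Of the 7 members that act in RNA polymerase I transcription, 6 were lower at 4 d with a median of -1.29, and at 2 d 3 were (POLR1B, POLR1C and POLR1E), with a median of -0.40. POLR1E, a subunit that helps the enzyme start and elongate, showed the largest change of the group at 4 d. It was read at 50.3, 35.9 and 46.8 CPM at 0 h, 47.0, 49.1 and 49.3 at 4 h, 20.0, 21.4 and 18.8 at 2 d and 8.51, 8.71 and 9.31 at 4 d. The 2 d libraries lay below all of 0 h and 4 h, and the 4 d libraries below all of 2 d. The changes were -1.14 ± 0.15 at 2 d and -2.32 ± 0.15 at 4 d (edgeR adjusted p = 6.34e-08).

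UBTF, the upstream binding factor that opens ribosomal DNA chromatin and recruits SL1, had the highest mean of the group and, at 2 d and 4 d, the smallest change of all 48 members. Its level was 266, 291 and 292 CPM at 0 h, 302, 343 and 395 at 4 h, 282, 277 and 267 at 2 d and 244, 208 and 221 at 4 d. The 4 h libraries were the highest and the 4 d libraries the lowest, and those of 2 d overlapped with 0 h. The change at 4 d was -0.34 ± 0.15 (edgeR adjusted p = 0.0656), and it passed the test with DESeq2, with an offset for GC content, and without 4 h replicate 1, 4 h replicate 3 or 4 d replicate 1 (edgeR adjusted p from 0.0345 to 0.047). It also passed without the 3 libraries apart in GC (-0.38, edgeR adjusted p = 0.00915). RRN3, which couples the polymerase to SL1, stood at -0.17 ± 0.14 at 2 d and -0.46 ± 0.14 at 4 d (edgeR adjusted p = 0.0121), and TAF1D, a subunit of SL1, at -0.10 ± 0.16 and -0.45 ± 0.16 (edgeR adjusted p = 0.0254). Both calls at 4 d were lost when libraries were scaled by their totals alone, that of RRN3 also without 4 d replicate 3 (edgeR adjusted p = 0.0534) and that of TAF1D without 0 h replicate 1 (0.103) or 4 d replicate 1 (0.102).

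The 2 large subunits form the active centre. POLR1A was at 0.53 ± 0.21 at 4 h, -0.40 ± 0.21 at 2 d (edgeR adjusted p = 0.146) and -1.29 ± 0.21 at 4 d, and POLR1B at 0.20 ± 0.15, -1.14 ± 0.15 and -1.95 ± 0.16 (the difference between them was not tested). POLR1A was called at 2 d with an offset for GC content (-0.84, edgeR adjusted p = 0.000355) and without the 3 libraries apart in GC (-0.50, edgeR adjusted p = 0.0122). POLR1C, a subunit that RNA polymerase III also uses, was at -1.45 ± 0.17 and -1.94 ± 0.18. Of the 13 tested further polymerase I subunits and factors, several of them shared with the other polymerases, 4 were lower at 2 d and 8 at 4 d. The shares of all tested genes lower were 18.7% and 29.7%. In the list 0 were higher at 2 d or 4 d. At 4 h 1 was higher, TAF1A (1.19 ± 0.25, edgeR adjusted p = 0.0133), against 2.00% of all tested genes. CD3EAP, a polymerase I subunit (-2.55 ± 0.24), and POLR2F, a subunit shared by all 3 polymerases (-1.53 ± 0.17), changed most in the list at 4 d.

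Nucleolar chaperones and multifunctional nucleolar proteins fell in all 7 members at 4 d (median -2.10) and in 6 of 7 at 2 d (median -1.13). NPM1, nucleophosmin, a histone and ribosome chaperone that is frequently mutated in acute myeloid leukemia, had the highest mean of the group, 1403, 974 and 1203 CPM at 0 h. It stood at 1415, 1407 and 1518 CPM at 4 h, 521, 586 and 546 at 2 d and 406, 394 and 403 at 4 d. Every 4 h library was above the 0 h libraries, and the late groups were below both without overlap. The changes were -1.11 ± 0.16 at 2 d and -1.57 ± 0.16 at 4 d (edgeR adjusted p = 2.47e-06). The annotation names 45 pseudogenes of NPM1, so its reads could be set aside as not unique or placed on copies, and its level is uncertain.

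NPM3, a small relative of nucleophosmin, showed the largest change of all 48 members at 4 d. Its level was 137, 117 and 105 CPM at 0 h, 104, 122 and 160.3 at 4 h, 28.1, 29.8 and 32.0 at 2 d and 13.5, 11.4 and 13.3 at 4 d. The 0 h and 4 h libraries overlapped, and the steps to 2 d and to 4 d left no overlap. With changes of -1.999 ± 0.18 and -3.23 ± 0.19 (edgeR adjusted p = 2.24e-08), the 4 d mean was 10.6% of the 0 h mean. Its listed promoter held no E-box.

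DDX21, an RNA helicase that acts in both rRNA transcription and processing, had the smallest change at 4 d and the largest standard error in the group. It was at 143, 63.6 and 157 CPM at 0 h, 268, 246 and 164 at 4 h, 83.1, 86.2 and 61.2 at 2 d and 27.5, 54.2 and 47.6 at 4 d. The 0 h replicate 2, one of the libraries that stand apart in GC, lay within the 2 d range and far below its mates, and the 4 h libraries were the highest. The changes were 0.90 ± 0.33 at 4 h (edgeR adjusted p = 0.117), -0.66 ± 0.33 at 2 d (edgeR adjusted p = 0.132) and -1.49 ± 0.33 at 4 d (edgeR adjusted p = 0.00174). Without 0 h replicate 2 it was called lower at 2 d (-0.97, edgeR adjusted p = 0.0144), and without all 3 libraries apart in GC it was also called higher at 4 h.

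The other nucleolar proteins were NCL, nucleolin, at -0.998 ± 0.17 and -1.62 ± 0.17 at 2 d and 4 d, and NOLC1, a chaperone of snoRNPs, at -1.13 ± 0.24 and -2.38 ± 0.25. MYBBP1A, a nucleolar regulator of rRNA synthesis whose promoter is printed above, was at -1.29 ± 0.20 and -2.10 ± 0.20. LYAR, a nucleolar zinc-finger protein, was at -1.66 ± 0.14 and -2.52 ± 0.15. All 4 were called lower at both times.

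Proteins of the box C/D snoRNPs fell in 4 of 4 members at 2 d and at 4 d, with medians of -1.21 and -2.06. FBL, fibrillarin, the methyltransferase of the particle, had the highest mean of these. Its libraries read 555, 510.4 and 478 CPM at 0 h, 451, 506 and 715 at 4 h, 221, 270 and 247 at 2 d and 126, 119.7 and 128 at 4 d. Times 0 h and 4 h overlapped, with 4 h replicate 3 the highest of all, and 2 d and 4 d each lay apart. The changes were -1.06 ± 0.18 and -2.04 ± 0.19 (edgeR adjusted p = 9.36e-07).

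RRP9, a protein of the U3 particle whose promoter carries an E-box at the start site, changed most in the group at 2 d and 4 d. It was at 93.8, 149 and 102 CPM at 0 h, 82.0, 97.9 and 145 at 4 h, 34.5, 35.6 and 32.2 at 2 d and 28.96, 20.0 and 22.8 at 4 d. The highest libraries were 0 h replicate 2 and 4 h replicate 3, both among those apart in GC, and every 2 d library lay below all of 0 h and 4 h. The changes were -1.75 ± 0.24 and -2.26 ± 0.24, and the step from 2 d to 4 d, -0.51 ± 0.23, did not pass the test (edgeR adjusted p = 0.127).

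NOP58, a core protein of box C/D particles and host of 3 snoRNA genes, changed least among them. The values were 160, 136 and 136 CPM at 0 h, 151, 145 and 156 at 4 h, 73.7, 78.0 and 80.9 at 2 d and 52.1, 44.5 and 42.6 at 4 d. All groups but 0 h and 4 h were apart, and the changes were -0.89 ± 0.14 and -1.63 ± 0.14. NOP56, its partner in the particle, was at -1.35 ± 0.18 and -2.08 ± 0.18. In the related list of H/ACA snoRNP and snoRNP assembly genes, 9 of 13 were lower at 2 d and 12 of 13 at 4 d, with 0 higher and a median of -1.68 at 4 d. The shares of all tested genes lower were 18.7% and 29.7%. RUVBL1 (-2.65 ± 0.16) and RUVBL2 (-2.37 ± 0.22), ATPases that assemble snoRNPs, changed most in that list.

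Small-subunit processome and 40S maturation factors were lower in 12 of 13 members at 2 d (median -0.80) and in 13 of 13 at 4 d (median -1.36). NAT10, an RNA acetyltransferase that modifies 18S rRNA, had the highest mean among them over all libraries. Its level was 197, 193 and 228 CPM at 0 h, 240.1, 245 and 270.5 at 4 h, 112, 111 and 106 at 2 d and 76.4, 73.1 and 76.6 at 4 d. Every group lay apart from the next, 4 h highest and 4 d lowest. The changes were 0.29 ± 0.13 at 4 h (edgeR adjusted p = 0.195), -0.91 ± 0.14 at 2 d and -1.45 ± 0.14 at 4 d.

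DDX10, a helicase of the processome, fell most in this set. It was at 40.1, 38.4 and 42.0 CPM at 0 h, 39.9, 44.1 and 41.4 at 4 h, 16.2, 15.0 and 16.1 at 2 d and 8.20, 9.51 and 9.66 at 4 d. Replicates were close together at each time, and only 0 h and 4 h overlapped. The changes were -1.34 ± 0.13 and -2.13 ± 0.14 (edgeR adjusted p = 3.95e-08).

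RRP12, which acts in late maturation and export of pre-ribosomes, changed least in the set at 4 d and had no further decline after 2 d. It was at 125, 181 and 142 CPM at 0 h, 125, 146 and 195 at 4 h, 91.2, 88.8 and 84.2 at 2 d and 120, 79.6 and 88.1 at 4 d. The 4 d replicate 1, apart in GC, lay just under the lowest 0 h library, while the other 4 d libraries overlapped with 2 d. The changes were -0.76 ± 0.21 at 2 d (edgeR adjusted p = 0.0122) and -0.64 ± 0.21 at 4 d (edgeR adjusted p = 0.0175). The call at 4 d was lost without 0 h replicate 2, 4 d replicate 2 or 4 d replicate 3 (edgeR adjusted p from 0.0553 to 0.0746).

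Among the other small-subunit factors, the scaffold and processome proteins NOP14, NOL6, UTP20, WDR43 and WDR75 were at -1.63 ± 0.13, -1.41 ± 0.21, -1.36 ± 0.23, -1.21 ± 0.19 and -0.95 ± 0.13 at 4 d. The U3-associated proteins IMP3 and IMP4 were at -0.88 ± 0.28 and -1.04 ± 0.17, and EMG1, a methyltransferase of 18S rRNA, at -1.57 ± 0.18. BYSL, needed for late 40S assembly and with its E-box printed above, was at -1.83 ± 0.17, and TSR1, a GTPase-like factor of cytoplasmic 40S maturation, at -1.29 ± 0.14. At 2 d UTP20 did not pass the test (-0.51 ± 0.22, edgeR adjusted p = 0.0873), but did without 0 h replicate 2 (edgeR adjusted p = 0.0272). In 3 of these genes the call at 2 d was lost when single libraries were left out. For IMP3 (-0.802 with all libraries) these were 0 h replicate 2 or any 2 d replicate (-0.88 to -0.492, edgeR adjusted p from 0.0625 to 0.144). For TSR1 (-0.457) they were 0 h replicate 3, 2 d replicate 1 or 2 d replicate 2 (-0.45 to -0.381, edgeR adjusted p from 0.0533 to 0.0708). For WDR43 (-0.566) they were 0 h replicate 1, 0 h replicate 3, 2 d replicate 1 or 2 d replicate 3 (-0.546 to -0.426, edgeR adjusted p from 0.0759 to 0.113). With all libraries kept, a replicate block also lost the calls of IMP3 and WDR43, and library totals those of TSR1 and WDR43. At 4 d IMP3 lost its call without 0 h replicate 2, 4 d replicate 2 or 4 d replicate 3 (edgeR adjusted p from 0.0576 to 0.0658).

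Further small-subunit factors, 42 genes that are not members, were lower in 29 at 2 d and in 37 at 4 d, against 18.7% and 29.7% of all tested genes. The median of the list was -1.04 at 4 d. PNO1, which helps the last cut of 18S rRNA (-2.12 ± 0.25), and WDR3, of the processome (-1.86 ± 0.18), changed most. NOP9 was higher at 2 d (0.72 ± 0.26, edgeR adjusted p = 0.0421) and at 4 d (0.76 ± 0.26, edgeR adjusted p = 0.0213), the 1 gene of the list in that direction; it was picked out after its values were seen.

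Factors of large-subunit assembly were lower in 15 of 16 members at 2 d (median -1.38) and in 16 of 16 at 4 d (median -2.02). PA2G4, an RNA-binding protein of pre-60S particles that also binds the ErbB3 receptor, had the highest mean. Its level was 547, 489 and 516 CPM at 0 h, 479.8, 525 and 614 at 4 h, 189, 188 and 193 at 2 d and 105, 94.8 and 99.98 at 4 d. The first groups overlapped, and the 2 d and 4 d groups lay far below with little spread. The changes were -1.45 ± 0.15 and -2.37 ± 0.15 (edgeR adjusted p = 4.09e-08).

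MRTO4, a relative of the ribosomal stalk protein that prepares the stalk of the pre-60S particle, changed most in the group. It stood at 183, 151 and 137 CPM at 0 h, 111, 128 and 155 at 4 h, 37.2, 42.6 and 44.1 at 2 d and 25.6, 17.0 and 18.8 at 4 d. The late groups were apart from each other and from the early ones. The changes were -1.93 ± 0.19 and -2.94 ± 0.20 (edgeR adjusted p = 8.04e-08), and the 4 d mean was 13.1% of that at 0 h. Its promoter is among those printed, with the E-box just after the start site.

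PPAN, a factor of 60S precursor processing, had the lowest level and, at 4 d, the smallest change in the group. It was at 5.69, 18.1 and 12.9 CPM at 0 h, 10.3, 9.79 and 16.8 at 4 h, 6.93, 7.18 and 7.87 at 2 d and 5.40, 4.85 and 7.83 at 4 d. The range of its 0 h libraries overlapped with those of all other groups. The change at 4 d was -1.02 ± 0.355 (edgeR adjusted p = 0.0253), a call lost under limma-voom, in the fit to 6 libraries, with an offset for GC content, and without 0 h replicate 2, 0 h replicate 3, 4 d replicate 1 or 4 d replicate 2 (edgeR adjusted p from 0.0578 to 0.127). That call was also lost without the 3 libraries apart in GC (-0.54, edgeR adjusted p = 0.12). Without 0 h replicate 1 PPAN was called at 2 d (-1.08, edgeR adjusted p = 0.0125). Its exons overlap P2RY11 and the PPAN-P2RY11 readthrough gene on the same strand, so its reads are uncertain.

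The other large-subunit factors were all called lower at both times. EBNA1BP2, NOP16 and RRS1, early assembly factors, were at -2.71 ± 0.17, -2.48 ± 0.18 and -1.76 ± 0.20 at 4 d, and GNL3, the GTPase nucleostemin of stem and tumor cells, at -2.17 ± 0.14. NOP2, a methyltransferase of 28S rRNA, was at -1.73 ± 0.20, the helicase DDX18 at -1.39 ± 0.18, NIP7 at -1.92 ± 0.14, and the paralogs RRP1 and RRP1B at -1.95 ± 0.20 and -1.30 ± 0.15. GRWD1, a chaperone of a ribosomal protein, was at -0.54 ± 0.19 at 2 d (edgeR adjusted p = 0.0396), a call lost without 0 h replicate 2, 0 h replicate 3, 2 d replicate 2, 2 d replicate 3 or 4 d replicate 3 (0.0586 to 0.132), and at -1.53 ± 0.20 at 4 d. Of 42 further 60S assembly and export factors, 31 were lower at 2 d and 41 at 4 d, against 18.7% and 29.7% of all tested genes. In the list 0 were higher, and the median was -0.97 at 4 d. NLE1 (-2.41 ± 0.15), which prepares the removal of early factors, and DDX31 (-2.11 ± 0.17), a nucleolar helicase, changed most.

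NME1, a nucleoside diphosphate kinase and classical MYC target rather than an assembly factor, had the largest change after NPM3 at 4 d and the largest of all at 2 d. It was at 68.4, 76.2 and 49.1 CPM at 0 h, 47.9, 70.2 and 72.4 at 4 h, 10.1, 15.6 and 18.1 at 2 d and 8.51, 5.55 and 8.09 at 4 d. Early and late groups did not overlap. The changes were -2.15 ± 0.26 and -3.13 ± 0.27 (edgeR adjusted p = 5.99e-07). The NME1-NME2 readthrough gene shares its exons, which makes the count uncertain.

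**Figure D4:**
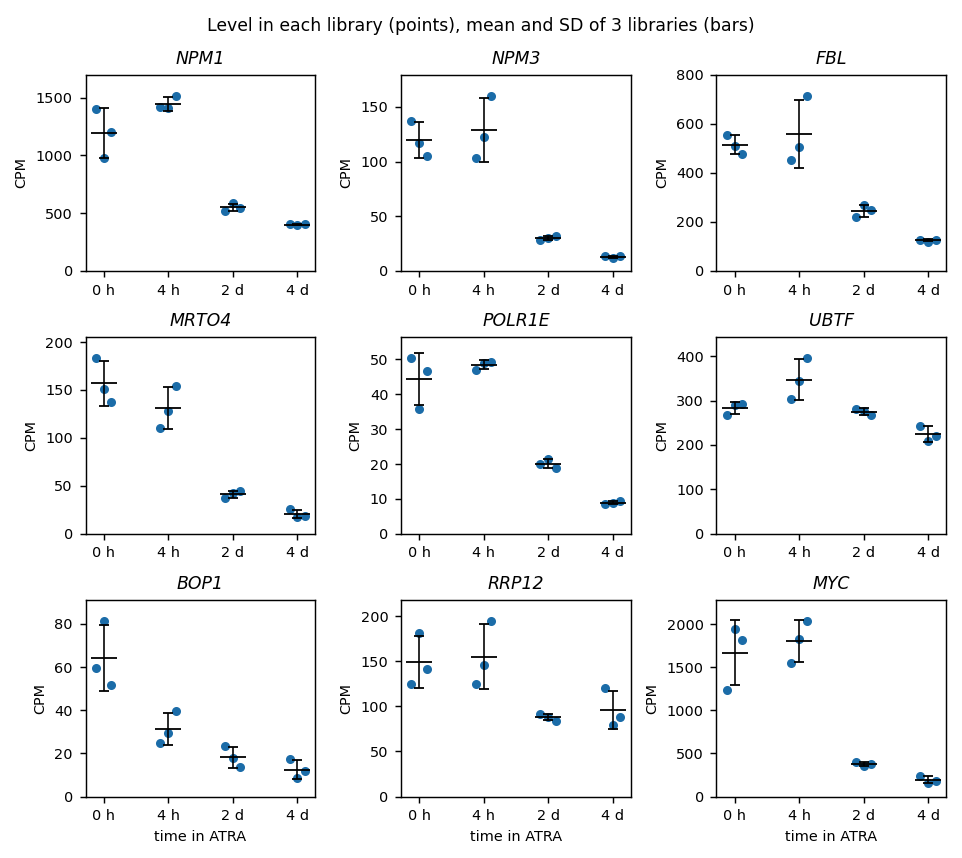
CPM of 8 members and of MYC in each library (points), with the mean and SD of the 3 libraries of each time (bars); each panel has its own axis from 0. NPM3, FBL, MRTO4 and POLR1E step down at 2 d and at 4 d, UBTF stays between 208 and 395 CPM, RRP12 shows no further decline after 2 d, and BOP1 is already lower at 4 h.

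Per kilobase of the longest annotated transcript, NPM1 was the most abundant member at 0 h with a mean of 679 CPM per kb, followed by FBL with 368, NCL with 285 and PA2G4 with 201, and UTP20 the least abundant with 3.50. The median level over members was 36.3 CPM per kb at 0 h and 8.89 at 4 d. The 8 members that hold snoRNA genes in their introns (NCL, NOP56, NOP58, WDR43, GNL3, PPAN, TSR1 and TAF1D) had a median log2 change of -1.46 at 4 d, and the other 40 members of -1.88. In the 18 members with an E-box at any listed start the median change at 4 d was -1.94 (range -3.13 to -1.04), and in the 22 without one -1.60 (range -3.23 to -0.34). These medians are descriptions, with overlapping ranges and no test.

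Some genes of the other polymerases and of RNA processing were also lower. Over all tested genes, 18.7% were lower than 0 h at 2 d and 29.7% at 4 d. Of the 7 subunits that only RNA polymerase II uses, 1 was lower at 2 d and 2 at 4 d, near those shares. The 2 were POLR2I (-1.73 ± 0.27) and POLR2D (-1.17 ± 0.24), with 0 higher and a median of -0.44 over the list at 4 d. Of the 11 that only RNA polymerase III uses, 7 were lower at 2 d and 8 at 4 d, with 0 higher and a median of -0.98, led by POLR3G (-2.58 ± 0.50). The RNA exosome and its cofactors, which trim precursor rRNA, were lower in 9 of 14 genes at 2 d and 10 at 4 d, with 0 higher and a median of -0.80, led by EXOSC5 (-1.95 ± 0.19) and EXOSC2 (-1.95 ± 0.14). The lists differ in size and level from the members, and no difference between lists was tested.

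MYC moved with the members in time. Its level was 1236, 1945 and 1812 CPM at 0 h, 1552, 1824 and 2033 at 4 h, 404, 351 and 379 at 2 d and 238, 158 and 181 at 4 d. The 0 h and 4 h libraries overlapped, the 2 d libraries lay far below them, and the 4 d libraries below those of 2 d. The changes were 0.12 ± 0.20 at 4 h, -2.14 ± 0.21 at 2 d and -3.11 ± 0.22 at 4 d (edgeR adjusted p = 1.08e-07). Of 8 tested genes of MYC and its partners, 2 were lower at 4 d, 2 higher and 4 not called, with a median of 0.11. Over all tested genes, 29.7% were lower and 28.1% higher. Beside MYC, the called genes were MAX, the partner of MYC on the E-box, which was lower (-0.59 ± 0.16), and 2 that were higher. These were MXD1 (1.18 ± 0.21) and MNT (0.84 ± 0.16), which bind MAX in place of MYC and repress. Whether MYC had a part in the fall of the members was not tested.

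**Figure D5:**
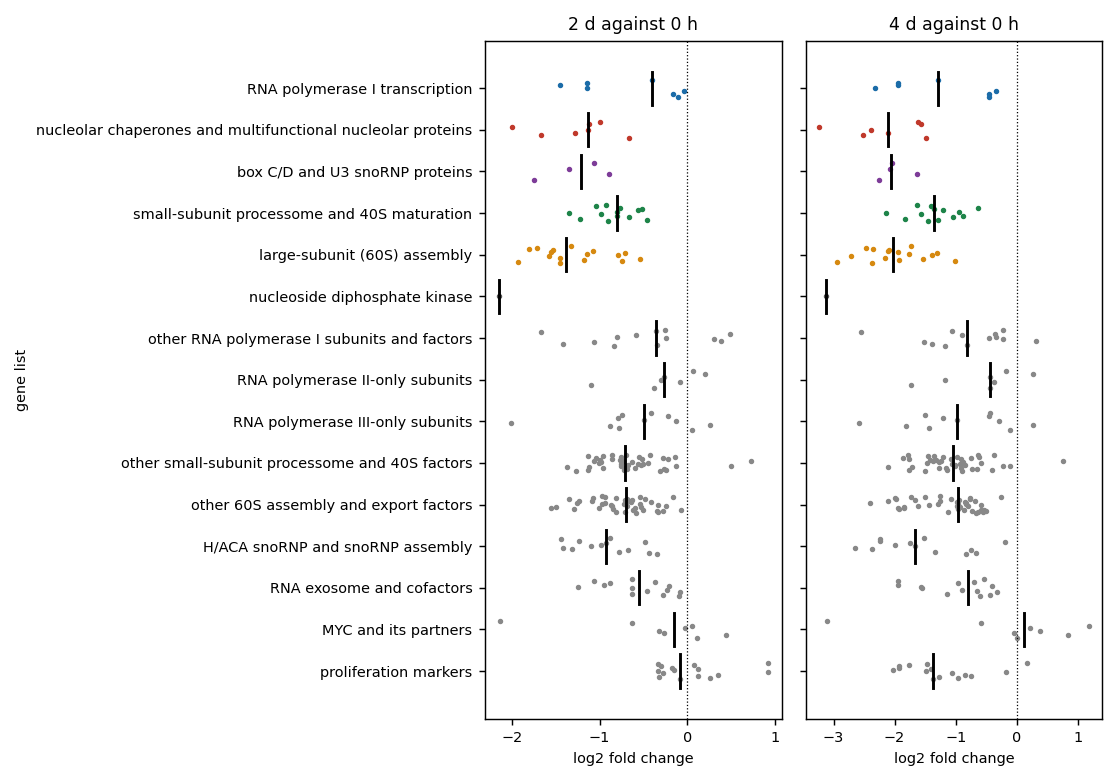
Log2 fold change at 2 d (left) and 4 d (right) against 0 h for the tested genes of each role group of members (coloured) and each further list (grey); black bars are medians. At 2 d the median is -1.38 for large-subunit members and -0.08 for proliferation markers, and at 4 d -2.02 and -1.37.

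Proliferation markers lay beside the members with another course. At 2 d, 0 of 15 were lower and 2 higher (MKI67, 0.92 ± 0.16, and TOP2A, 0.92 ± 0.30), against 18.7% and 16.9% of all tested genes. The markers' median was -0.08 at 2 d, and their summed level was 3488 to 4072 CPM, against 3214 to 4192 at 0 h. At 4 d, 13 of 15 were lower, against 29.7% of all tested genes, with a median of -1.37, and the sum was 1441 to 1655 CPM. The summed level of the 48 members was 8009 to 8713 CPM at 0 h, 3932 to 4096 at 2 d and 2530 to 2764 at 4 d. Thus the 2 d libraries were below the 0 h libraries in the members' sum and overlapped with them in the sum of the proliferation markers. The part of proliferation in the members' values was not tested.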

How the data were processed

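RNA-seq libraries of HL-60 cells at 0 h, 4 h, 2 d and 4 d in ATRA were used, 3 per time. The deposited values are counts, whole reads per gene. Per the submitters' processing notes, the tools were FastQC, Trim Galore 0.6.7, HISAT2 2.1.0 and HTSeq 1.99.2, with build hg19; the annotation, strand setting and kit were not given in the sources used here. Counts are per gene, so isoforms are not separated. Reads that were ambiguous between genes (2.74% to 3.9%) or not uniquely aligned (4.5% to 5.7%) were set aside and not counted to a gene. How genes that overlap on opposite strands were handled is not known. In GENCODE v29, exons of 8 members overlap another gene on the same strand and those of 15 on the other strand, so reads of these members may be missing. Replicates differed by more than counting error (chi-square per degree of freedom 3.47 to 98.02).

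Counts were analysed with edgeR 4.0.16 in R 4.3.3: filterByExpr, TMM factors, 1 quasi-likelihood fit of all 12 libraries with 1 mean per time (8 residual degrees of freedom), and Benjamini-Hochberg adjustment over 12671 genes, called at an adjusted p under 0.05. Each fold change's SE is its absolute log2 value divided by the root of its F statistic. The steps were tested on simulated data. CPM are TMM-scaled. GC content, length and gene positions came from GENCODE v29 (GRCh38) by symbol (92.9% of genes, 100% of members), promoters from RefSeq.

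Values in every library are given for the member of each role with the highest mean, the largest and the smallest change at 4 d, and for those called at 4 h; of each further list the 2 called genes that changed most at 4 d are named, except where a gene is not reported here. The members, roles, lists and alternatives were chosen with earlier results of these data known. Alternatives were RLE factors, library totals, DESeq2 1.42.0, limma-voom (limma 3.58.1), other filters and thresholds, fits to 6 libraries, a replicate block, an offset for GC content and length, each library left out, and the 3 libraries apart in GC left out.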

Additional observations from a re-analysis of the deposited data

How the results depend on the processing

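Of 3456 member changes recomputed under the alternatives, 3283 kept their direction and call, 43 gained a call and 83 lost one. The other 47 changed sign without being called in either fit, 45 of them at 4 h (18 members) and 2 at 2 d, and 0 called changes reversed. At 4 h, members called higher numbered 3 with DESeq2, 2 with no filter, 5 with the GC offset and 7 without the 3 libraries apart in GC (0 to 4 without single libraries). Members called lower at 4 h numbered 0 in the fit to 6 libraries, with a replicate block and at an adjusted p under 0.01, and 3 without the 3 libraries apart in GC (0 to 1 without single libraries). With a 2-fold minimum, 27 members were lower at 2 d against 0 h, 29 at 2 d against 4 h and 6 at 4 d against 2 d. The median change at 4 d was -1.68 with library totals (-1.92 to -1.68 without single libraries). That of 4 d against 2 d was -0.60 with the GC offset (-0.72 to -0.65 without single libraries). The cause of these shifts was not tested.

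Over all alternatives and left-out libraries, tested genes called at 4 h ranged from 73 to 1572 higher and from 156 to 1619 lower. Same-numbered libraries correlated from -0.813 to 0.677 over 18 pairs, 6 of them over 0.1, and 2 of 12 libraries lay closest to their own number. The 3 libraries apart in GC bear different numbers and correlated with each other at 0.635, 0.851 and 0.649. These correlations therefore cannot show whether replicate numbers pair the libraries. With the replicate block 38 members were lower at 2 d, 46 at 4 d and 46 changed over time, against 15.0%, 27.1% and 55.5% of tested genes. The largest SEs at 4 d were those of PPAN (0.355), the member with the lowest CPM, and of DDX21 (0.333), which was not low.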
